A study of Mus musculus with 6 samples.

Results

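The genes described here buffer metals and oxidants in the cell and number 10: the metallothioneins Mt1 and Mt2, Hmox1, Nqo1, Gclc, Gclm, Txnrd1, Srxn1, Gpx1 and Nfe2l2. They were taken by gene symbol, and all 10 were found among the 24421 symbols of each library's file. The libraries came from sorted endothelial cells (EC) of C57BL/6 mice. The normal group held 3 libraries from normal brain. The glioma group held 3 libraries from tumors taken 3 weeks after GL26l glioma cells had been placed in the brain of congenic mice. Cells of both groups were endothelial cells purified from whole tissue, neither group is labelled as carrying an allele or drug, and the age of the mice is not given in the sources used here. The model is limited to tumors of a single injected cell line, and whether a library pools mice is not given. The series' design text calls the 3 RNA sets of each group independent but does not say that each came from another animal, so p-values measure only how far these libraries spread, which may be technical in part.

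Metallothioneins are small cysteine-rich proteins that bind zinc and copper, and the metal sensor MTF1 switches their genes on. The transcription factor NRF2, the product of Nfe2l2, is held low by KEAP1 and, when released by oxidants, binds antioxidant response elements (ARE) of genes for glutathione synthesis, thioredoxin recycling and quinone detoxification. Brain endothelium faces the oxygen and metals of the blood, and metallothioneins are abundant there.

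Promoters are shown first, for 4 members on which the results below turn: the neighbours Mt1 and Mt2, whose order differed between libraries, and Txnrd1 and Srxn1, which lay on opposite sides of 0. Mt2 ends 5513 bases before Mt1 begins on chromosome 8 (GRCm38, the assembly of mm10). RefSeq promoters on GRCm38.p6 ran from 250 bases before to 50 bases after the annotated start site. They matched 8 of the 10 members, all but Hmox1 and Gclc. Capitals mark matches on either strand to the ARE core TGACNNNGC, the AP-1 site TGACTCA, or the core of the metal response element (MRE), TGCACNC or TGCGCNC.
Mt1, chr8:94178839-94179138, plus strand: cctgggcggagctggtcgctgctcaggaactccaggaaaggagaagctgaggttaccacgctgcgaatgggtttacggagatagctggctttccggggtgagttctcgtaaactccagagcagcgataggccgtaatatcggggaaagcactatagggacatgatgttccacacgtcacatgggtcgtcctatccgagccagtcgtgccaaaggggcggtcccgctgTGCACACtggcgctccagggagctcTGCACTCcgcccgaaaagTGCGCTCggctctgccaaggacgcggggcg
Mt2, chr8:94172368-94172667, plus strand: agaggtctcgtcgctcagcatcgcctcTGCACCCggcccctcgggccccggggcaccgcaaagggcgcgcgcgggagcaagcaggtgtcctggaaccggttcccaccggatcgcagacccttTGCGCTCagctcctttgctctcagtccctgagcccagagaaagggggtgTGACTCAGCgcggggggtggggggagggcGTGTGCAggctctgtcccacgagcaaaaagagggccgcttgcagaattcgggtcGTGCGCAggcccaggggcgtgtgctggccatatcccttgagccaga
Txnrd1, 1 of its 3 promoters, chr10:82858956-82859255, plus strand: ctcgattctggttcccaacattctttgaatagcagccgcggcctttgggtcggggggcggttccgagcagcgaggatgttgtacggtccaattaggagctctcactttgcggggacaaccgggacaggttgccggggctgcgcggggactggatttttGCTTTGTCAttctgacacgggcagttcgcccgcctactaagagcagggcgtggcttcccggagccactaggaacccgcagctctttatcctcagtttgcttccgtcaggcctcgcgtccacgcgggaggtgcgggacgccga
Srxn1, chr2:152105274-152105573, plus strand: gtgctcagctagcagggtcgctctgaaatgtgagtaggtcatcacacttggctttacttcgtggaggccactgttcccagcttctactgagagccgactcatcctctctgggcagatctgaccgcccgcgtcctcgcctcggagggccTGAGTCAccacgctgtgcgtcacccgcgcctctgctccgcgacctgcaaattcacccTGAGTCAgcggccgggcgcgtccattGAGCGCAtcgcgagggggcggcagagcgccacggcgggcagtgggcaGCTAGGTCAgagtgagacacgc
In the Mt1 window 3 MRE cores were found, 1 before the annotated start site and 2 after it. In the Mt2 window 4 MRE cores were found, 3 before the annotated start site and 1 after it. The Mt2 window also held 1 ARE core, which overlaps an AP-1 site. Of 32851 promoters of that length, 25.7% held at least 1 MRE core, 7.11% held 2 or more and 0.517% held 4 or more. The Txnrd1 window shown held 1 ARE core, and the Txnrd1 promoters that start at 82833701 and 82860091 held no ARE, AP-1, MRE or HIF core. The Srxn1 window held 1 ARE core of the form searched, after its annotated start site, 2 AP-1 sites and 1 MRE core. Of all promoters, 0.222% held 2 or more AP-1 sites. Among the other members, Gclm held 1 ARE core and 3 MRE cores, and Nfe2l2 held 1 ARE core. Nqo1 and Gpx1 held no ARE, AP-1 or MRE core of these forms within the window. Of the 10 promoters of the 8 matched members, 5 held an ARE core, beside 12.4% of all promoters. Of these 10, 3 belong to Txnrd1. The members were chosen as metallothionein and antioxidant response genes, so this share is not independent of the choice and was not tested. The HIF core ACGTG was found in 3 of the 10, beside 19.6%. A match is a description of letters, and nothing in these data measured binding. Whether transcription begins at the annotated sites, Mt1 included, was not tested. Only these letter forms were searched, and only within these windows. A gene without a match may therefore hold an element of another form or farther away.

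Facts of the libraries set how far the members can be read. Values are log2(x + 1) of quantile-normalized 3′ reads, so a value is a rank in its library put on a common scale, and depth is unknown. Lexogen's kit reads transcripts near their 3′ ends, so levels of different genes carry no length factor. Normal replicate 1 had 7446 genes above 0, against 10013 to 13108 in the other libraries, and its lowest value above 0 was 7.43. Mt2 and Gpx1 belonged to 77 genes listed at 0 there, which is 4.24% of the 1814 genes that exceeded 9.5 everywhere else. The column headers of normal replicate 1 and glioma replicate 1 share the tag ECS, whose meaning is not given, and the other 4 headers lack it. The header of glioma replicate 3 names a control and no tissue, and its group was taken from the sample title. Normal replicates 2 and 3 correlated at r = 0.972 across 5880 genes and every other pair of libraries at 0.543 to 0.816. Fits without normal replicate 1 therefore take the spread of the normal group from 2 much alike libraries, and whether these came from separate mice is not given. All 16 endothelial markers lay above 0 in all 6 libraries and summed to 2.43% to 3.74% of each normal library's total and 1.37% to 2.74% of each glioma library's. All 4 measured B cell markers were at 0 in all libraries. In bulk samples, fewer cells of a type and less RNA per cell cannot be told apart.

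No member passed the test between the groups. With limma across 11862 genes, 0 genes had a Benjamini-Hochberg adjusted p under 0.05 (percent called 0.0), while 509 genes, 4.29%, had an unadjusted p under 0.05, and 0 of the 10 members did. Differences are glioma minus normal on the log2 scale. They were above 0 for 8 members and below 0 for 2, Gclc and Srxn1, with a median of 1.30 over the 10 members and 0.05 over all genes tested. For the 6 members without any 0 it was 0.51, beside -0.18 for all 5880 such genes. Gpx1 had all 3 glioma values above all normal values, as had 6.91% of genes tested, and Srxn1 had them all below, as had 6.37%. Together these were 2 of 10 members, beside 13.3% of all genes. The count was 4 without normal replicate 1, where 35.6% of all genes tested separated and 14.9% separated upward, 3 of the 4 members doing so upward. It was 4 without glioma replicate 1 (28.9% of all genes), 5 without glioma replicate 2 (22.8%) and 4 without glioma replicate 3 (22.6%). It stayed at 2 without normal replicate 2 (15.9%) or normal replicate 3 (17.6%). With values also raised to a shared floor of 7.43, it was 4 without normal replicate 1 (26.8%). Within the 4 libraries whose headers lack the tag it was 6, beside 56.2% of all genes. Unadjusted p under 0.05 were found for 2 members without normal replicate 1, Txnrd1 and Gpx1, beside 10.1% of all genes, and for 2 within those 4 libraries, Txnrd1 and Nfe2l2, beside 22.7%. With limma's array weights 2.71% of all genes and 0 members passed the adjusted threshold.

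**Figure D1:**
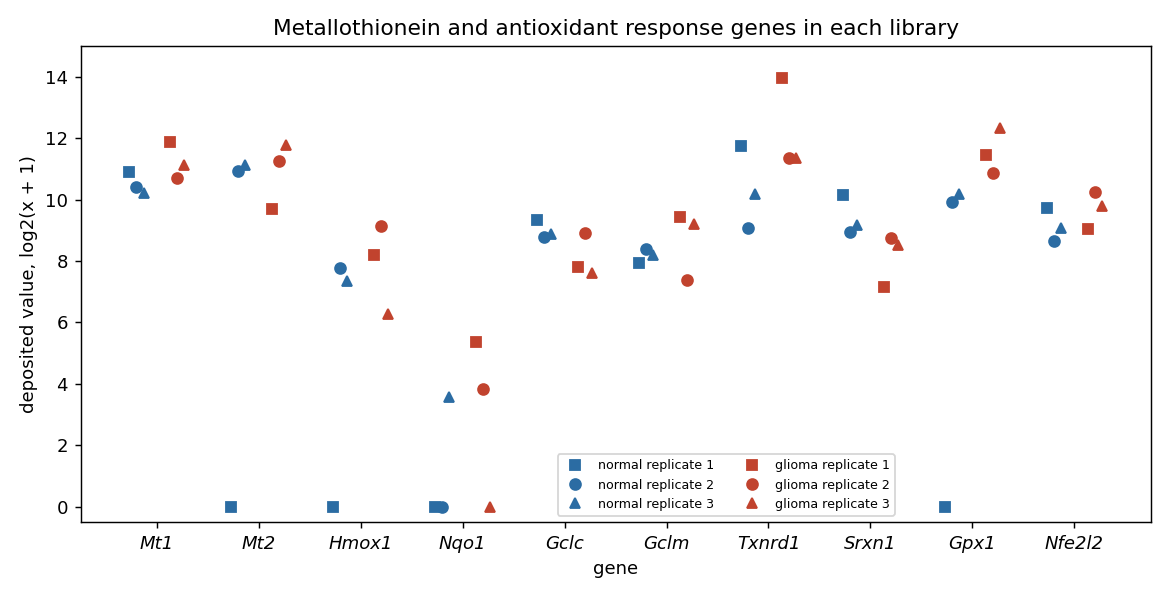
Deposited log2(x + 1) value (vertical axis) of each of the 10 genes (horizontal axis), with 1 point per library, blue for normal and red for glioma, and the shape giving the replicate. The squares of normal replicate 1 lie at 0 for Mt2, Hmox1, Nqo1 and Gpx1, and the glioma points of Gpx1 lie between 10.86 and 12.32, above all normal points.

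The metallothioneins were among the highest members. Mt1 (chromosome 8, 94179082 to 94180327) stood at 10.90, 10.42 and 10.20 in normal replicates 1, 2 and 3, against 11.86, 10.69 and 11.11 in glioma replicates 1, 2 and 3. The groups overlapped only because normal replicate 1 lay above glioma replicate 2, and they lay apart with either of these libraries left out. The means were 10.51 ± 0.36 and 11.22 ± 0.59 (SD, n = 3 each), a difference of 0.71 (SE 0.51, limma adjusted p = 0.875). Mt1 ranked at the 78.1st to 81.2nd percentile of detected genes in the normal libraries and at the 82.9th to 93.9th in the glioma libraries. Its within-group SD of 0.49 was below the median of 0.90 over the 5880 genes above 0 in all libraries.

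Mt2 (chromosome 8, 94172664 to 94173568), the neighbouring gene with the same metal-binding role, was listed at 0 in normal replicate 1 and stood at 10.92 and 11.12 in normal replicates 2 and 3. In glioma replicates 1, 2 and 3 it stood at 9.71, 11.24 and 11.78. Glioma replicate 1 was thus the lowest library above 0, and the groups overlapped. The difference of 3.56 (SE 2.61, limma adjusted p = 0.875) rested on the library at 0 and was -0.11 (SE 0.66, limma adjusted p = 0.957) without normal replicate 1. An antisense gene, Gm45774, overlaps Mt2, and 44.8% of the 50-base windows at the ends of Mt2 transcripts also occur in it. Whether counting used strand is not given, so reads of that stretch may come from either gene.

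The order of the pair was not the same in all libraries. Mt2 exceeded Mt1 by 0.50 and 0.92 in normal replicates 2 and 3, and by 0.55 and 0.67 in glioma replicates 2 and 3. Mt1 exceeded Mt2 in both libraries whose headers carry the ECS tag, by 2.15 in glioma replicate 1 and with Mt2 at 0 in normal replicate 1. Among the 4 libraries without the tag, both genes were wholly higher in glioma. Mt1 differed there by 0.59 (SE 0.27, limma adjusted p = 0.311) and Mt2 by 0.49 (SE 0.28, limma adjusted p = 0.396), while 24.1% of all genes tested in those 4 libraries were wholly higher. No 50-base window at the ends of Mt1 transcripts occurred in another annotated gene.

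**Figure D2:**
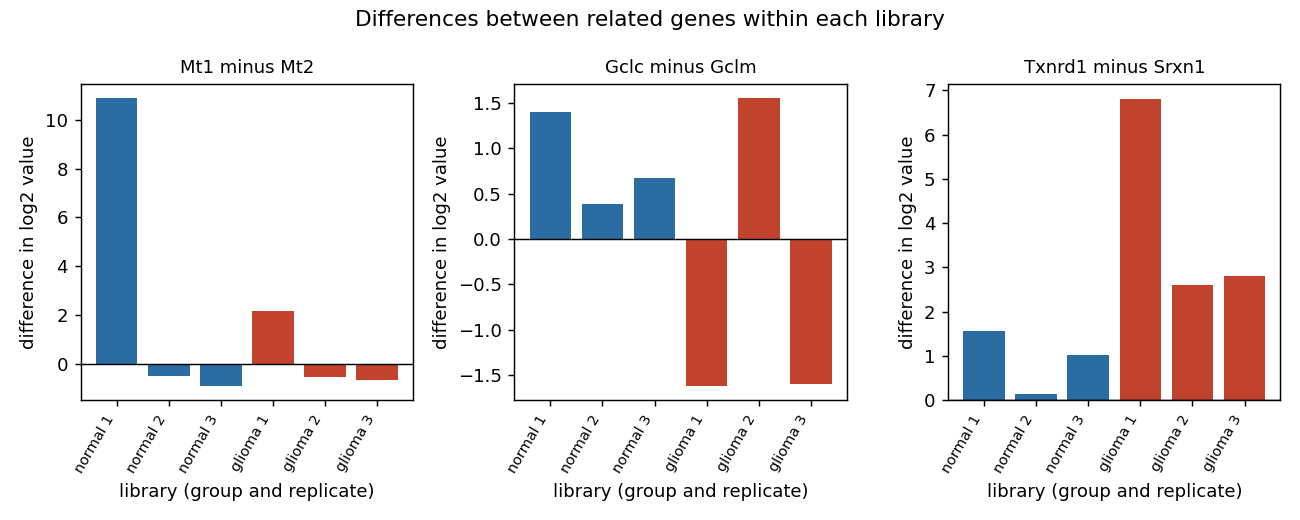
Difference in log2 value between 2 related genes within each library, for Mt1 minus Mt2, Gclc minus Gclm and Txnrd1 minus Srxn1, with normal libraries in blue and glioma libraries in red. Mt1 minus Mt2 is above 0 in both replicate 1 libraries and below 0 in the other 4, and Txnrd1 minus Srxn1 is at least 2.61 in glioma and at most 1.57 in normal libraries.

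Glutathione peroxidase 1, the product of Gpx1, reduces hydrogen peroxide with glutathione in the cytosol. Gpx1 (chromosome 9, 108338903 to 108340343) was listed at 0 in normal replicate 1 and stood at 9.93 and 10.20 in normal replicates 2 and 3. It stood at 11.45, 10.86 and 12.32 in glioma replicates 1, 2 and 3. Every glioma library lay above every normal library, with a gap of 0.66 between the groups. The difference was 4.83 (SE 2.39, limma adjusted p = 0.875), and 1.48 (SE 0.53, limma adjusted p = 0.478) without normal replicate 1. Gpx1 was the highest member in glioma replicate 3. That library had 18 of 22 microglia and macrophage markers above 0, which summed to 0.217% of its total, against 0.00604% and 0.00738% in the other glioma libraries and 0.0018% to 0.0242% in the normal libraries. Of those markers, Cd163 and Adgre1 were at 0 in all libraries. Glioma replicate 1 had the highest erythroid sum, 2.44%, over 7 of 7 markers above 0, against 0.0821% and 0.542% in the other glioma and 0.0887% to 0.333% in the normal libraries. The part of these cells in the Gpx1 values was not tested.

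Thioredoxin reductase 1, the product of Txnrd1, keeps cytosolic thioredoxin reduced with NADPH. Txnrd1 (chromosome 10, 82833951 to 82897712) stood at 11.73, 9.09 and 10.19 in normal replicates 1, 2 and 3, against 13.97, 11.35 and 11.34 in glioma replicates 1, 2 and 3. Normal replicate 1 lay among the glioma libraries, and the other normal libraries lay below all of them. The means were 10.34 ± 1.33 and 12.22 ± 1.51 (SD, n = 3 each), a difference of 1.88 (SE 0.89, limma adjusted p = 0.875). Without normal replicate 1 it was 2.58 (SE 0.89, limma adjusted p = 0.467), with the groups apart. Within the pair of libraries that carry the ECS tag Txnrd1 was higher in glioma by 2.24, and within the other 4 by 1.71. With that tag as a term beside the group, a fit added after seeing the data, the difference of 1.88 had an SE of 0.40. Its limma p (unadjusted p = 0.00277, limma adjusted p = 0.561 over all genes) was the smallest of the 10 members. In that fit 1041 of 11862 genes had an unadjusted p under 0.05, against 509 with the group as the only term. In glioma replicate 1 Txnrd1 reached the 99.2nd percentile of detected genes. The same library had 9 of 10 fibroblast markers above 0, summing to 0.0261%, against 0.000301% and 0.00611% in the other glioma and 0.000486% to 0.00581% in the normal libraries, and Dpt was at 0 in all. Its 8 neuronal markers, 7 of them above 0, summed to 0.0447%, against 0.000343% and 0.00123% in the other glioma and 0.00293% to 0.00363% in the normal libraries. The part of these cells in the Txnrd1 values was not tested. Eid3, a gene inside Txnrd1, stood at 1.87 in normal replicate 3 and 1.81 in glioma replicate 1 and at 0 elsewhere.

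Sulfiredoxin, the product of Srxn1, repairs overoxidized peroxiredoxins. Srxn1 (chromosome 2, 152105516 to 152111376) stood at 10.16, 8.95 and 9.17 in normal replicates 1, 2 and 3, against 7.16, 8.74 and 8.53 in glioma replicates 1, 2 and 3. All glioma libraries lay below all normal libraries, by a gap of 0.21. The means were 9.43 ± 0.64 and 8.14 ± 0.86 (SD, n = 3 each), a difference of -1.28 (SE 0.83, limma adjusted p = 0.875). It was -0.92 (SE 0.78, limma adjusted p = 0.690) without normal replicate 1, -3.00 within the pair with the ECS tag and -0.42 within the other 4 libraries. Most of the size thus came from the 2 replicate 1 libraries. Txnrd1 and Srxn1 are both known NRF2 targets, and their distance within a library was 1.57, 0.14 and 1.02 in the normal and 6.81, 2.61 and 2.81 in the glioma libraries. This pair was chosen after its values were seen, and the distance was not tested.

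Glutamate-cysteine ligase makes the rate-limiting step of glutathione synthesis from a catalytic subunit, encoded by Gclc, and a modifier subunit, encoded by Gclm. Gclc (chromosome 9, 77754535 to 77794485) stood at 9.33, 8.79 and 8.88 in normal replicates 1, 2 and 3, against 7.81, 8.93 and 7.60 in glioma replicates 1, 2 and 3. Glioma replicates 1 and 3 lay below all normal libraries and glioma replicate 2 lay among them, for a difference of -0.89 (SE 0.83, limma adjusted p = 0.875). Gclm (chromosome 3, 122245557 to 122270732) stood at 7.93, 8.40 and 8.20 in normal replicates 1, 2 and 3, against 9.43, 7.38 and 9.20 in glioma replicates 1, 2 and 3. Glioma replicates 1 and 3 lay above all normal libraries and glioma replicate 2 below all of them, for a difference of 0.49 (SE 0.93, limma adjusted p = 0.924). The Gclm difference was -0.015 within the 4 libraries without the ECS tag and 1.49 within the pair with it.

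The subunits did not keep their order within the glioma group. Gclc exceeded Gclm by 1.40, 0.39 and 0.68 in the normal libraries and by 1.55 in glioma replicate 2, and Gclm was the higher in glioma replicates 1 and 3, where Gclc minus Gclm was -1.62 and -1.59. Gclm values are uncertain, as those of Mt2 are, since 10.3% of the 50-base windows at the ends of its transcripts occur in 26 other annotated genes, Ppia among them. Gclm was also the lowest member detected in normal replicate 1, at the 12.3rd percentile.

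Heme oxygenase 1, the product of Hmox1, breaks heme down to biliverdin, iron and carbon monoxide. Hmox1 (chromosome 8, 75093621 to 75100589) was listed at 0 in normal replicate 1 and stood at 7.76 and 7.34 in normal replicates 2 and 3. In glioma replicates 1, 2 and 3 it stood at 8.18, 9.14 and 6.27. Glioma replicate 3 lay below both detected normal libraries, so the groups overlapped. The difference was 2.83 (SE 2.47, limma adjusted p = 0.875), and 0.31 (SE 1.13, limma adjusted p = 0.923) without normal replicate 1. Hmox1 is a gene that macrophages also express, and glioma replicate 3, with the highest microglia and macrophage sum, had the lowest glioma value, at the 10.9th percentile of its detected genes. The part of these cells in the Hmox1 values was not tested.

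Nqo1, which encodes a quinone reductase often used as a readout of NRF2, was the lowest member. Nqo1 (chromosome 8, 107388225 to 107403206) was listed at 0 in normal replicates 1 and 2 and glioma replicate 3, and stood at 3.56 in normal replicate 3, 5.38 in glioma replicate 1 and 3.82 in glioma replicate 2. The value in glioma replicate 2 was the lowest above 0 that this library holds. Each of these values lay below 7.43, the level under which normal replicate 1 lists nothing but 0, so Nqo1 differences were not detectable beyond that gap. The fitted difference was 1.88 (SE 2.01, limma adjusted p = 0.878).

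Nfe2l2 itself (chromosome 2, 75675513 to 75704641) stood at 9.73, 8.66 and 9.08 in normal replicates 1, 2 and 3. In glioma replicates 1, 2 and 3 its values were 9.06, 10.25 and 9.79. The groups overlapped, with normal replicate 1 high and glioma replicate 1 low within their groups. The means were 9.16 ± 0.54 and 9.70 ± 0.60 (SD, n = 3 each), a difference of 0.54 (SE 0.67, limma adjusted p = 0.885). The difference was -0.67 in the pair with the ECS tag, which has 1 library per group. Within the other 4 libraries glioma was higher by 1.15 (SE 0.36, limma adjusted p = 0.188). The tag cannot be told apart here from the single libraries that carry it, and its part was not tested. Regulation of NRF2 acts mainly on the protein, which RNA does not measure.

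**Figure D3:**
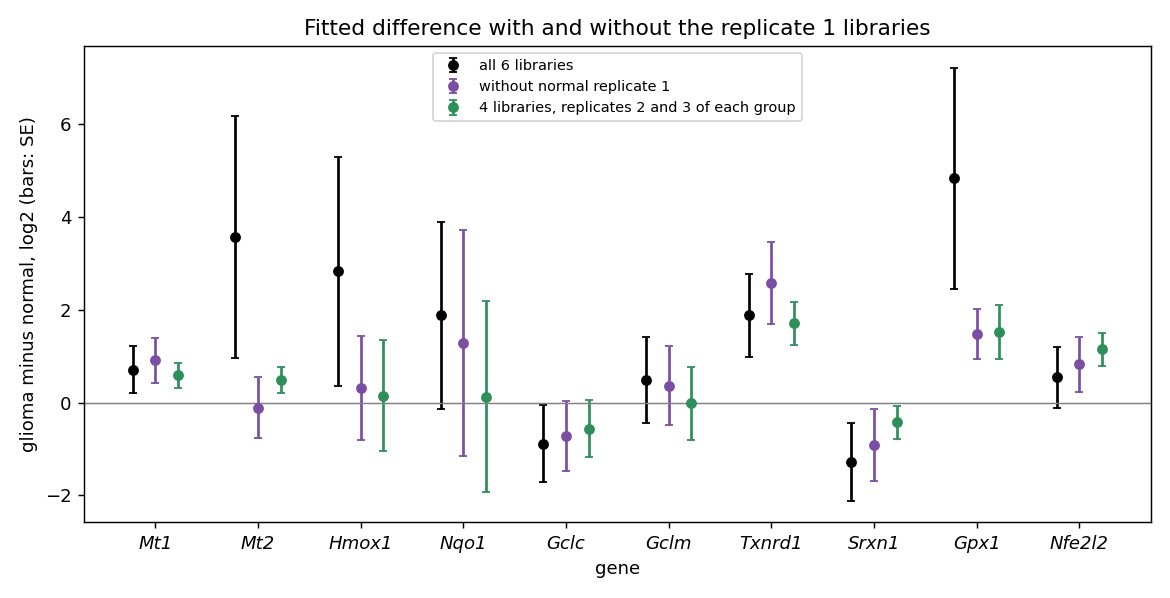
Glioma minus normal difference in log2 value (vertical axis, bars show the SE from limma) of each gene for all 6 libraries in black, without normal replicate 1 in purple, and for the 4 libraries that are replicates 2 and 3 of each group in green. The Gpx1 difference is 4.83 over all 6 libraries and 1.48 without normal replicate 1, and the Txnrd1 difference lies between 1.71 and 2.58 in the 3 fits.

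Compared by the header tag, 8 of the 10 members had the same sign of difference in the tagged pair and in the other 4 libraries, as did 46.7% of all genes tested. A gene at 0 in normal replicate 1 can only be higher or equal in the tagged pair, which fixes the sign there for 4 members. Of the 6 members above 0 in all libraries, 4 had the same sign, Mt1 and Txnrd1 upward and Gclc and Srxn1 downward, as did 50.2% of the 5880 such genes. Gclm and Nfe2l2 differed in sign.

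By mean over the 6 libraries Txnrd1 stood highest at 11.28, then Mt1 at 10.86, Nfe2l2 at 9.43, Srxn1 at 8.78, Gclc at 8.56 and Gclm at 8.42 among members above 0 in all libraries. Neighbours in that order differed by less than their range over the libraries, which was 1.66 for Mt1 and 4.88 for Txnrd1. Mt2 was the highest member in normal replicates 2 and 3, Txnrd1 in normal replicate 1 and glioma replicates 1 and 2, and Gpx1 in glioma replicate 3.

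For 5 of the members above 0 in all 6 libraries, the 2 genes of most like pattern were named by Pearson's r over the 6 libraries, as the highest of 5879 genes. For Txnrd1 these were Fndc3a (r = 0.992) and Map1b (0.990), and for Srxn1 Fam174a (0.993) and Entpd1 (0.989). For Gclc they were Sos1 (0.996) and Lmbrd1 (0.995), for Gclm Ubxn7 (0.981) and S100a1 (0.974), and for Nfe2l2 Gtf2a2 (0.995) and Cast (0.980). No member was among them. These are descriptions over 6 points that share the libraries' normalization.

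Further genes of these pathways were taken from 7 lists, which hold 160 different symbols, of which 158 genes other than the members were measured and 138 tested. None passed limma's adjusted threshold, and 4 of the 138 had an unadjusted p under 0.05, beside 4.29% of all genes tested. All 4 were higher in glioma: Cdkn1a, and Gpx3, Akr1b8 and G6pdx, which lay under 7.43 in every normal library. Glioma libraries lay wholly above normal for 13 and wholly below for 6, together 13.8% of those tested, beside 13.3% of all genes. Without normal replicate 1 this was 49 of 138, or 35.5%, beside 35.6% of all genes. Both shares were near the background. With values raised to the shared floor of 7.43, 4 lay wholly above and 6 wholly below, 7.25% of those tested beside 9.19% of all genes.

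**Figure D4:**
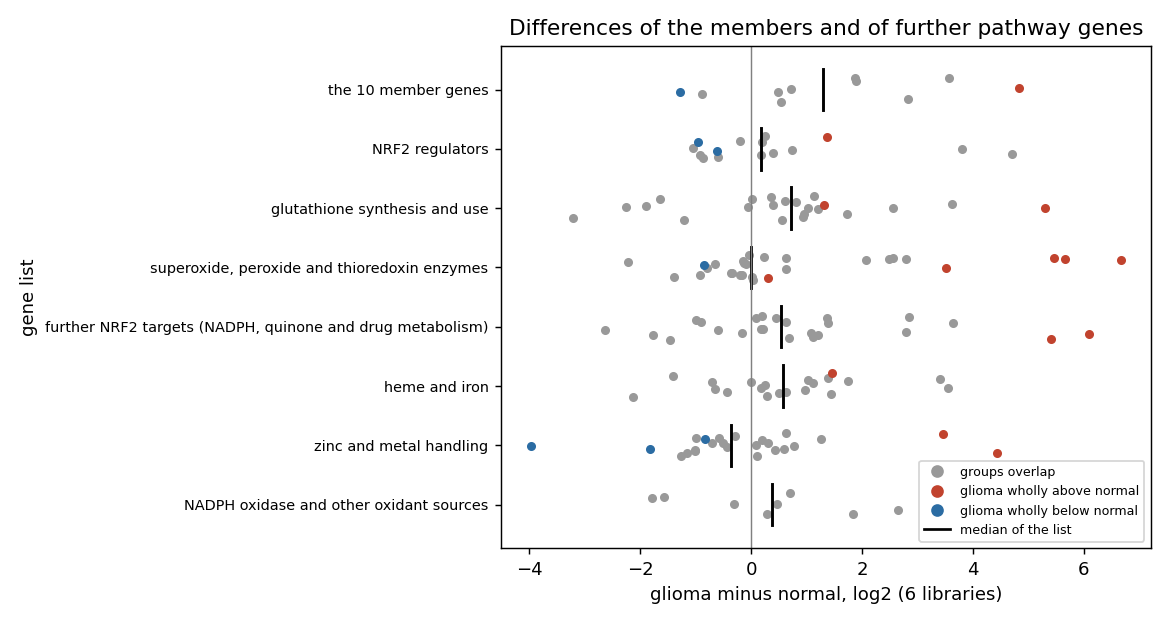
Glioma minus normal difference in log2 value (horizontal axis) over 6 libraries for the 10 member genes and the tested genes of each further list (vertical axis), with 1 point per gene, red where all glioma libraries lay above all normal libraries, blue where they lay below and grey where they overlapped, and a black line at each list's median. List medians lie between -0.37 for zinc and metal handling and 0.71 for glutathione synthesis and use, and 1.30 for the members.

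Among 15 tested NRF2 regulators the median was 0.18, with 1 wholly higher and 2 wholly lower. Keap1, whose product marks NRF2 for destruction, stood at 12.58, 12.17 and 12.31 in the normal and 11.05, 11.90 and 11.24 in the glioma libraries, a difference of -0.96 (SE 0.44, limma adjusted p = 0.875). Bach2, a repressor of the BACH family, stood at 9.14, 8.95 and 8.70 against 8.04, 8.45 and 8.42. Cdkn1a, whose product p21 can bind NRF2, stood at 10.94, 10.77 and 11.09 against 11.31, 12.45 and 13.15. Nfe2l1, which encodes a relative of NRF2, was the highest of the list, at 11.37, 13.84 and 13.78 in the normal and 12.27, 12.44 and 12.46 in the glioma libraries.

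Enzymes that act on superoxide, peroxide and disulfides had a median of -0.01 over 28 tested genes, with 5 wholly higher and 1 wholly lower. Gpx3, a secreted glutathione peroxidase, had a 0 in every normal library and stood at 5.80, 7.22 and 6.99 in glioma, all under the lowest value of normal replicate 1. Prdx4, the peroxiredoxin of the secretory pathway, was at 0, 0 and 4.64 in the normal libraries, against 8.22, 6.70 and 6.12 in the glioma libraries. Msra, a methionine sulfoxide reductase, was at 0, 0 and 7.03 against 7.40, 8.52 and 8.08. All normal values of Prdx4 and Msra also lay under 7.43, that lowest value. Pon2, a lactonase with antioxidant function, was lower, at 11.57, 11.78 and 11.88 in the normal libraries, against 10.77, 10.91 and 10.96 in the glioma libraries. The highest of the list were Sepp1, the selenium carrier selenoprotein P, Txnip, which binds thioredoxin, Sod1, the cytosolic superoxide dismutase, and Prdx6, and the groups overlapped for each. Sod1 was even, at 12.94, 12.99 and 12.93 in the normal libraries, against 13.21, 13.04 and 12.18 in the glioma libraries.

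The glutathione list had a median of 0.71 over 22 tested genes, and 0.35 without normal replicate 1, with 2 wholly higher. Mgst3, a microsomal glutathione transferase, stood at 0, 4.21 and 3.56 in the normal libraries, against 7.71, 6.83 and 9.15 in the glioma libraries. Its normal values all lay under 7.43, the lowest value above 0 in normal replicate 1. Glrx3, a glutaredoxin, stood at 7.61, 7.88 and 7.94 against 9.58, 8.67 and 9.12. Slc3a2, the heavy chain of amino acid exchangers that include the cystine carrier, was the highest of the list and overlapped, at 9.66, 12.70 and 12.71 in the normal libraries, against 10.54, 13.10 and 14.27 in the glioma libraries.

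Further NRF2 targets of NADPH supply and drug metabolism had a median of 0.53 over 24 tested genes, and -0.12 without normal replicate 1. Akr1b8, an aldo-keto reductase, had a 0 in every normal library and stood at 3.12, 7.0 and 8.18 in glioma. G6pdx, whose enzyme opens the pentose phosphate pathway, was at 0, 0 and 2.17 in the normal libraries, against 6.41, 4.38 and 7.60 in the glioma libraries. Both genes lay under 7.43 in 5 of the 6 libraries, so their differences rest on the range that normal replicate 1 does not show.

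Heme and iron genes had a median of 0.57 over 20 tested genes, and 0.63 without normal replicate 1, with 1 wholly higher. That gene was Slc11a2, an importer of iron, at 7.43, 7.21 and 7.69 in the normal libraries, against 9.10, 8.72 and 8.91 in the glioma libraries. Fth1, the ferritin heavy chain, was the highest of the list and overlapped, at 15.20, 13.16 and 13.07 against 14.76, 14.10 and 15.92. Its 2 highest values were those of glioma replicate 3 and normal replicate 1, which also had the 2 highest microglia and macrophage sums, and their part in Fth1 was not tested.

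Zinc and metal handling genes had a median of -0.37 over 24 tested genes, and -0.28 without normal replicate 1, with 2 wholly higher and 3 wholly lower. Mt3, the metallothionein known from neural tissue, stood at 7.85, 8.73 and 8.11 in the normal libraries, against 0, 5.31 and 7.44 in the glioma libraries, below the normal range while Mt1 was not. Slc30a4 and Slc30a5 (the latter named after its values were seen), exporters of zinc from the cytosol, were the other genes wholly lower. Slc30a4 stood at 10.83, 10.39 and 10.29 against 10.10, 9.90 and 9.02, and Slc30a5 at 7.67, 8.37 and 8.03 against 5.89, 5.77 and 6.95. Slc30a10, an exporter of manganese, stood at 0, 2.84 and 3.12 against 7.13, 6.42 and 5.71, and Slc39a14, an importer of several metals, at 0, 3.77 and 3.39 against 7.69, 4.26 and 5.60. Every value of these genes, except that of Slc39a14 in glioma replicate 1, lay under 7.43, the range that normal replicate 1 does not show. Slc30a1, a zinc exporter and known MTF1 target like Mt1 and Mt2, was the highest of the list and overlapped, at 12.10, 12.56 and 12.69 in the normal libraries, against 10.78, 13.00 and 12.68 in the glioma libraries. Mt4, another metallothionein gene named after its values were seen, was at 0 in all libraries.

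Genes of NADPH oxidases and other oxidant sources had a median of 0.38 over 8 tested genes, and -0.19 without normal replicate 1, with 0 wholly higher or lower. Nos3, the endothelial nitric oxide synthase, stood at 9.25, 11.59 and 11.45 in the normal libraries, against 8.11, 11.10 and 12.13 in the glioma libraries, low in both replicate 1 libraries. Cyba, the shared p22 subunit of the oxidases, stood at 12.23, 9.60 and 9.76 against 9.93, 11.06 and 11.47.

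Stress from cell isolation and glucocorticoids can raise metallothionein RNA, so 2 lists for them were read beside Mt1 and Mt2. The 15 dissociation stress genes summed to 0.403% to 0.562% of the normal and 0.492% to 0.81% of the glioma libraries, highest in glioma replicate 3, with 14 of 15 above 0 in normal replicate 1 and 15 in each other library. The 10 glucocorticoid response genes summed to 0.128% to 0.163% and 0.0753% to 0.339%, with 7 to 10 above 0. Their sum was lowest in glioma replicate 1, where Mt1 was highest and Mt2 lowest among glioma libraries. Differences were above 0 for 5 of them and below 0 for 5, with a median of 0.18, and -0.08 without normal replicate 1. Glioma lay wholly above normal for 3 of the 10, beside 6.91% of all genes tested. Astrocyte markers, of cells rich in metallothioneins, summed to 0.0903% to 0.121% in normal and 0.0783% to 0.136% in glioma libraries, with 6 to 9 of 10 above 0. Their 7 tested genes, 3 higher and 4 lower in glioma, had a median of -0.16, and -0.76 without normal replicate 1. Single markers, named after their values were seen, went both ways. Aqp4 and Gfap were above 0 only in normal replicates 2 and 3, at 8.63 and 7.88 and at 2.84 and 2.17. Gja1 was wholly higher in glioma. The part of astrocytes, isolation stress or glucocorticoids in the metallothionein values was not tested.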

How the data were processed

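Per the labels' protocols, Trizol-extracted total RNA went into Lexogen's QuantSeq kit. The submitters' processing notes name Bowtie2, edgeR and mm10 but give neither versions nor roles. How reads were counted, whether by strand, and with which annotation is not given in the sources used here. Deposited values have a log2 scale, read from the values as log2(x + 1) after quantile normalization by the authors across 6 libraries: every library has the same highest value (20.85) and, back-transformed, every non-zero value lies within 0.02 of a whole multiple of 1 divided by 6. Depth is therefore unknown, a 0 means only that a gene is listed at 0, and differences of genes with a 0 are widened.

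Groups came from the sample titles, also for glioma replicate 3, whose column header names a control and no tissue. limma 3.58.1 (R 4.3.3), with a mean trend and the group as the only term, was run on the deposited log2 values of 11862 genes that, back-transformed, reached 1 or more in 3 or more libraries. Adjustment was by Benjamini-Hochberg at 0.05. The script was tested on simulated data. The members, lists and rules were chosen with earlier results of these data known. All members were named, and from each list up to 4 genes whose groups did not overlap, by smallest p, and up to 4 with the highest mean. For members above 0 in all libraries, the 2 genes of highest Pearson's r were named, and those for Mt1 are not reported here. Marker lists for 14 cell classes, for dissociation stress and for the glucocorticoid response were read beside the members. Positions are from GENCODE on GRCm38, promoters from RefSeq on GRCm38.p6. The alternatives are given with their effect at the end, and those that use the header tag or combine 2 choices were added after seeing the data.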

Additional observations from a re-analysis of the deposited data

How the results depend on the processing

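Of 173 member differences under 18 other settings, 169 kept the sign of the fit over all libraries (or were 0) and none passed the adjusted threshold, where the lowest limma adjusted p was 0.129, for Txnrd1 with array weights. The Mt2 difference ran up to 5.45 with other libraries left out and turned to -0.11 without normal replicate 1, with and without the shared floor of 7.43, and Gclm turned to -0.19 with array weights and -0.015 within the 4 libraries without the header tag. The count of genes past the threshold was 0 over all libraries, 15 without a variance trend, 322 with array weights, 53 without normal replicate 1 together with the shared floor (added after seeing the data), and 0 without each library in turn. Array weights, which gave normal replicate 1 a weight of 0.11 and normal replicate 3 a weight of 17.2, stopped before they converged. Members whose groups did not overlap numbered 2 over all libraries, 1 among the genes above 0 in all 6 libraries, 2 to 5 with a library left out, 4 without normal replicate 1 with the shared floor, and 6 within the 4 libraries without the tag, where 56.2% of all genes did not overlap. With the replicate number as a replicate block, 0 genes passed (610 at an unadjusted p under 0.05). Deviations of same-numbered libraries correlated at 0.194, 0.152 and 0.06 across 5880 genes, and normal replicate 3 correlated best with glioma replicate 2 (0.191), so the numbers were not taken to pair the samples. Median centring moved the median of all genes from 0.05 to 0.14 and turned no member. Nqo1 was not tested without normal replicate 3, glioma replicate 1 or glioma replicate 2, and Mt2, Hmox1, Nqo1 and Gpx1 were not among genes above 0 in all 6 libraries. Depth limits what a 0 can show.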

Other observations

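Marker lists not described above also differed between single libraries. Pericyte and smooth muscle markers summed to 0.0403% to 0.124% of the normal and 0.0601% to 0.104% of the glioma libraries. Granulocyte markers, at 0 in normal replicate 1 and glioma replicates 2 and 3, summed to 0.0561% in glioma replicate 1, where S100a9, a calcium-binding protein of neutrophils, stood at 12.84 and was at 0 in all other libraries. Platelet markers summed to 0.00193% to 0.016% in the normal libraries, and to 0.0203%, 0.00298% and 0 in glioma replicates 1, 2 and 3. Oligodendrocyte lineage markers summed to 0.00143% to 0.0182% and 0.00359% to 0.0101%, and Mbp, the gene of myelin basic protein, stood at 10.96 and 10.94 in normal replicates 2 and 3, at 0 in normal replicate 1, and at 3.12, 3.82 and 0 in glioma. Cnp, of the same list and also a myelin gene, was wholly higher in glioma, at 0, 4.62 and 4.90 against 8.53, 8.13 and 10.74, and was the only marker of that list above 0 in glioma replicate 3. Choroid plexus and ependymal markers reached 0.0181% in glioma replicate 3, where Ttr, which encodes transthyretin, stood at 11.58. Of 7 markers of glioma or neural progenitors 6 were tested, 4 with a difference above 0 and 2 below, with a median of 2.57. Sox2 and Sox11, named after their values were seen, were the 2 wholly higher in glioma, as were 6.91% of all genes tested. Sox2, a factor of neural stem cells, stood at 0, 0 and 1.22 in the normal and 7.92, 5.53 and 8.47 in the glioma libraries. Sox11, a factor of developing neurons, stood at 0, 2.84 and 1.12 against 13.89, 6.13 and 7.59. All normal values of both lay under 7.43, the lowest value above 0 in normal replicate 1. Their list summed to 0.0811% to 0.31% of the normal and 0.165% to 0.182% of the glioma libraries, and it includes Prom1, at 13.48 to 15.65 in all 6 libraries with overlapping groups. Both Sox2 and Sox11 had a limma adjusted p of 0.875. Of 8 measured T and NK cell markers, at most 1 was above 0 in any library.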
